A study of Mus musculus with 6 samples.

Results

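The genes described here are the adenosine receptors and the enzymes and transporters that set the level of adenosine, a set of 10 symbols looked up by name in an expression table of 25631 genes from mouse oocytes. The set holds the receptors Adora1, Adora2a, Adora2b and Adora3, the ectoenzyme Nt5e, the adenosine-removing enzymes Ada and Adk, the transporters Slc29a1 and Slc29a2, and Ahcy, which releases adenosine from S-adenosylhomocysteine. The table listed 8 of the 10. Of these, 4 (Ada, Adk, Adora2b and Ahcy) reached 1 FPKM in no fewer than 3 libraries out of 6 and were tested among 10340 such genes, and 4 (Slc29a2, Slc29a1, Adora1 and Nt5e) lay under that level. Adora2a and Adora3 were not among the listed symbols and are not analysed here. The table held 0 genes at 0 in all 6 libraries, and why these symbols are missing was not tested.

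The RNA came from oocytes of naturally aged ICR mice, 14 months old, which were injected with equine chorionic gonadotropin and whose large antral follicles were punctured. The control group (n = 3 libraries, labelled as aged and untreated) drank water alone. The aminophylline group (n = 3 libraries) drank 4 mM aminophylline for 1 week, followed in the study's protocol by 3 weeks of water alone. The study does not restate this interval for the RNA. Both groups share the age, the strain and the hormone injection, and the design asks what differed in the oocyte after the drug. The numbers of mice and oocytes behind a library are not given in the sources used here, so the p-values measure only the spread between these libraries.

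Adenosine is made outside cells by stepwise removal of phosphates from ATP and inside cells from AMP or S-adenosylhomocysteine. It is removed by deamination to inosine or by phosphorylation back to AMP, and it crosses membranes through equilibrative carriers, which follow its gradient, and concentrative carriers, which are driven by sodium. Its receptors are coupled to G proteins that raise or lower cyclic AMP, the messenger that keeps the oocyte of an antral follicle in meiotic arrest. Aminophylline is a salt of theophylline, a methylxanthine that inhibits phosphodiesterases and also blocks adenosine receptors.

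Ada and Adk were the most abundant of these transcripts, Adora2b was the only listed receptor above an FPKM of 1, and Nt5e and both equilibrative carriers were close to 0. Adk was the 1 tested gene of the 4 that passed an unadjusted p of 0.05, with means of 43.4 ± 4.09 FPKM in controls and 32.5 ± 1.14 FPKM after aminophylline (SD, n = 3 each). Of all 10340 tested genes, 2.84% were lower and 4.41% higher at that unadjusted p. Adk passed no threshold after adjustment for the number of genes. Ada, Adora2b and Ahcy had higher means in the aminophylline group, each within the spread between libraries.

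FPKM is the number of reads on a gene divided by the length of its transcript and by the total of the library, so it allows genes to be compared within a library. The reads behind the values could be recovered as whole numbers, with library totals between 14112341 (control library 2) and 33641283 (control library 1). The 13 oocyte markers were all detected, with summed FPKM of 11229 to 17122. Control library 1 stood apart in macrophage genes: Lyz2 stood at 66.4 FPKM, Fcer1g at 57.6 and C1qc at 14.8, against at most 0.573, 0.368 and 0 in the other libraries. The 11 listed macrophage markers summed to 241 there and to 82.8 to 103 elsewhere, where C1qb made up nearly all of it. The tested adenosine genes are therefore also given without control library 1.

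**Figure D1:**
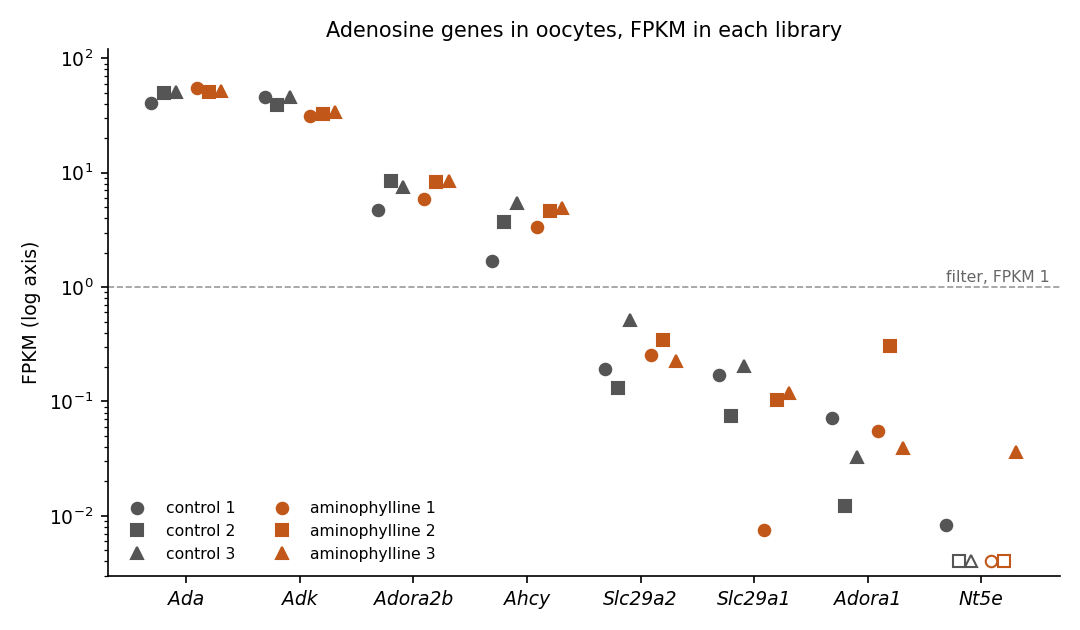
FPKM of the 8 listed adenosine genes (log axis) in each library, in order of mean level. Grey symbols are the 3 control libraries, orange symbols the 3 aminophylline libraries, open symbols at the bottom are values of 0, and the dashed line is the FPKM of 1 used in the filter. Ada and Adk lie between 31.5 and 55.1, Adora2b and Ahcy between 1.68 and 8.53, and the other 4 genes below 1 in all 6 libraries.

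Adk starts close to another gene. In the RefSeq annotation of GRCm38.p6 (the submitters' processing notes name GRCm38 with no patch), Adk lies on the plus strand of chromosome 14 (21052574 to 21448569). Ap3m1, a subunit of an adaptor complex of vesicle traffic, reaches up to 21052553 on the same chromosome and is read the other way. That position is thus the start of Ap3m1, and only 20 bases, which lie before both genes, part the starts. These 20 bases and the 250 bases before a further Adk start inside the gene are shown with those before Ada, because Adk and Ada are the enzymes the results turn on. Each is written 5′ to 3′ on the strand of its gene, and capitals mark GGGCGG, the core of a GC box, and TGACG, the half-site of a cyclic AMP response element, on either strand.
Adk, between Ap3m1 and the first start, chr14:21052554-21052573, plus strand: ggGGGCGGTGACGagctgag
Adk, before the further start, chr14:21075902-21076151, plus strand: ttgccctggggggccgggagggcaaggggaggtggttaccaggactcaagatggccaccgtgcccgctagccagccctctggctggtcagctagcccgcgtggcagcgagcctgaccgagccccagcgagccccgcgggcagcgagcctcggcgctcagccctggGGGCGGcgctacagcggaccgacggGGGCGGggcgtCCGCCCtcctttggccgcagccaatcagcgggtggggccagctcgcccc
Ada, before the start, chr2:163750240-163750489, minus strand: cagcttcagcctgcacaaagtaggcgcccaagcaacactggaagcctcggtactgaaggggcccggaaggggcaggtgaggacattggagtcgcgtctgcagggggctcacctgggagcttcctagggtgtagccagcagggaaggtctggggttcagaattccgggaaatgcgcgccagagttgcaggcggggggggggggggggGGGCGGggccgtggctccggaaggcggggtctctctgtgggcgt

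The gap before the first Adk start holds 1 GC box followed directly by 1 half-site. The window before the further start holds 3 GC boxes and no half-site, with 24 CpG and 75.2% G and C. The Ada window holds 1 GC box and no half-site, with 14 CpG and 67.2% G and C. Of 32851 RefSeq promoter windows of 250 bases, 32.7% hold GGGCGG and 17.8% hold TGACG, and the median window has 6 CpG and 52.4% G and C. The gap before the first Adk start, at 20 bases, is too short to set beside these shares. The full 250 bases before that start, which reach into Ap3m1, hold 2 GC boxes and 1 half-site. These matches describe letters only. No window of these 3 holds TGACGTCA, the full element, which 1.55% of all windows hold.

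Of the listed receptors, Adora2b (NCBI gene 11541, chromosome 11, 62248984 to 62266452), which raises cyclic AMP through Gs and needs more adenosine than its relatives, had the highest level. Its FPKM was 4.74, 8.53 and 7.55 across controls 1 to 3 and 5.94, 8.27 and 8.42 after aminophylline (libraries 1 to 3), from 222 to 475 reads a library. Control library 1 was the lowest of the 6, and the groups overlapped. The level lay above that of 80.5% of the listed genes. The log2 fold change, on the log2(FPKM + 1) scale used for all tested genes, was 0.12 (SE 0.25, 95% interval -0.43 to 0.68) with a limma p of 0.63 and an adjusted p of 0.905. Without control library 1 it turned to -0.09 (limma p of 0.701), so its direction rests on that library.

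Adora1 (NCBI gene 11539, chromosome 1, 134199215 to 134235457), the Gi-coupled receptor that lowers cyclic AMP, was near the limit of detection. It stood at 0.0715, 0.0122 and 0.0324 FPKM across the controls and at 0.0548, 0.305 and 0.0393 after aminophylline. Aminophylline library 2 alone was high, with 44 of the 60 Adora1 reads of its group, and the other 5 libraries held 1 to 14 reads. On log2(FPKM + 1) with no filter, the log2 fold change was 0.12 (limma p of 0.235). On recovered reads, with limma's voom and no filter, an alternative chosen after the values were seen, it was 1.17 (SE 0.92, limma p of 0.223). Adora3 lies within the span of Tmigd3 (chromosome 3, 105870858 to 105924044), which the table listed at 0.0546 to 0.263 FPKM with overlapping groups. Tmigd3 is a gene of its own and gives no value for Adora3.

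Nt5e (NCBI gene 23959, chromosome 9, 88327609 to 88372089), which encodes CD73, the enzyme that splits extracellular AMP into adenosine, was at or close to 0. It had 1 read in control library 1, 4 in aminophylline library 3 and 0 in the other 4 libraries. Only the 4 reads, at an FPKM of 0.0365, exceeded the floor of 3 reads, which corresponds to an FPKM of 0.0249 to 0.0594 by library. No difference was detectable at this depth, and no fold is given. Nt5el, a gene listed under its own symbol, stood at 0.0329 to 0.23 FPKM.

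The removal of adenosine was represented strongly. Ada (NCBI gene 11486, chromosome 2, 163726571 to 163750239), adenosine deaminase, turns adenosine into inosine. Its FPKM was 40.7, 49.3 and 50.5 across the controls and 55.1, 50.4 and 51.3 after aminophylline, from 1185 to 2737 reads. Control library 1 was the lowest, aminophylline library 1 was the highest, and control library 3 lay just above aminophylline library 2. Means were 46.8 ± 5.34 and 52.2 ± 2.48 (SD, n = 3 each). The log2 fold change was 0.16 (SE 0.16, 95% interval -0.20 to 0.52) with a limma p of 0.348 and an adjusted p of 0.794. Without control library 1 it was 0.06 (limma p of 0.693). Its mean FPKM held rank 1650, above 93.6% of the listed genes.

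Adk (NCBI gene 11534), adenosine kinase, phosphorylates adenosine to AMP and has a higher affinity for adenosine than the deaminase. Its FPKM was 45.7, 38.7 and 45.9 in the control libraries, from 9383, 3337 and 8920 reads. In the aminophylline libraries it was 31.5, 32.3 and 33.7, from 5428, 4884 and 6302 reads. Every aminophylline library lay below every control library, with the shallowest library, control library 2, closest to them. Such a separation held in 4.96% of all tested genes. The mean of the aminophylline group was 0.748 times that of the control group. An exact permutation test gave a two-sided p of 0.1, the smallest that 3 against 3 libraries allow.

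Across all tested genes, the log2 fold change of Adk was -0.40 (SE 0.16, 95% interval -0.76 to -0.05) with a limma p of 0.0306 and an adjusted p of 0.682. With the replicate number as a block the limma p was 0.0322 and the adjusted p 0.299. Over the 18 alternatives the change stayed negative, from -0.49 to -0.36, with unadjusted p from 0.00852 to 0.108 and adjusted p from 0.175 to 0.999. The unadjusted call was lost in 5 of the 6 fits that left out a library, with limma p of 0.0632 without control library 1, 0.0697 without control library 3, and 0.108, 0.0845 and 0.0701 without aminophylline libraries 1, 2 and 3. It was kept without control library 2, the shallowest, at a limma p of 0.0105.

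The background to this count was as follows. Of the 4 tested adenosine genes, 1 was lower and 0 were higher at an unadjusted limma p under 0.05, while 2.84% of the 10340 tested genes were lower and 4.41% were higher. After adjustment, 0% of the tested genes passed with limma, with 750 at an unadjusted p under 0.05 and a smallest adjusted p of 0.455. limma's voom on the recovered reads also called 0 after adjustment, and the replicate block called 47, of which 0 were adenosine genes. Every aminophylline library lay below every control library in 4.96% of the tested genes, Adk included. A change at least as negative as that of Adk was found in 465 genes (4.5%), and 439 genes had a p as small or smaller.

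**Figure D2:**
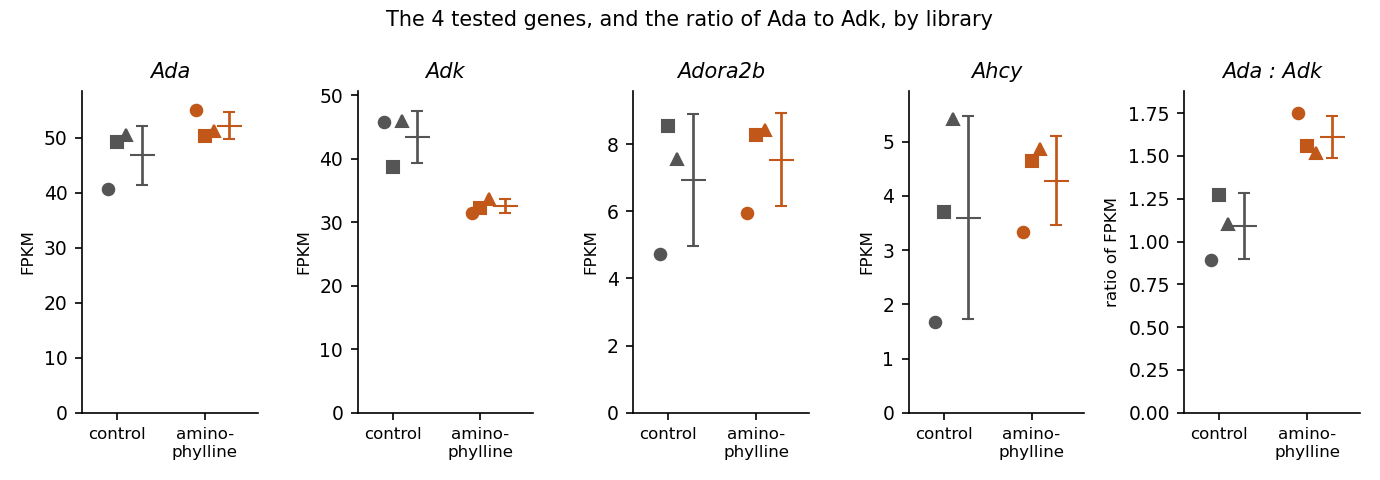
FPKM (linear axes from 0) of Ada, Adk, Adora2b and Ahcy and the ratio of Ada to Adk, with circles, squares and triangles for libraries 1, 2 and 3 of each group, and mean ± SD (n = 3) beside them. The groups do not overlap for Adk (38.7 to 45.9 against 31.5 to 33.7) or for the ratio (0.891 to 1.27 against 1.52 to 1.75), and they overlap for the other 3 genes. As with Adk, every aminophylline library was below every control library in 4.96% of all tested genes.

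The order of Ada and Adk, the opposed exits from the adenosine pool, can be read within a library, where the library total cancels out. It rests on the lengths recovered with the reads, 1704 bases for Ada and 6107 for Adk. Which isoforms the oocytes hold was not tested. Before division by length, Adk had more reads than Ada in every library. The ratio of Ada to Adk was 0.891, 1.27 and 1.1 across the controls and 1.75, 1.56 and 1.52 after aminophylline, with means of 1.09 ± 0.191 and 1.61 ± 0.122 (SD, n = 3 each). Ada had the higher FPKM of the pair in 5 of 6 libraries, all but control library 1. The ratio restates the values above, was formed with them known, and was not tested.

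Other measures moved with the groups in which Adk was lower. The 12 granulosa and cumulus markers summed to 215 to 278 FPKM across the controls and 164 to 179 in the aminophylline libraries. Most of this was Serpine2, a protease inhibitor, at 254, 198 and 220 against 145, 147 and 155 FPKM. Its log2 fold change was -0.58 (limma p of 0.00308, adjusted p of 0.651), and the unadjusted p reached at most 0.0186 when a library was left out. The other tested markers of the list, Nr5a2, Inha and Cyp19a1, did not all go the same way as Serpine2. Nr5a2, a nuclear receptor, stood at 6.63, 6.48 and 4.43 against 7.14, 7.33 and 8.53 FPKM (log2 fold change 0.35, limma p of 0.138). It was higher without overlap, as were 7.51% of all tested genes. Inha, an inhibin subunit, had a log2 fold change of 0.21 (limma p of 0.407). The defining granulosa markers Foxl2, Fshr and Amh were at or below 0.27 FPKM in every library, while Cyp19a1, the aromatase, stood at 7.37 to 15.7 with overlapping groups (log2 fold change -0.28, limma p of 0.327), and 8 of the 12 markers stayed under 1. In oocyte libraries such as these, fewer cells of a type and less RNA per cell cannot be told apart. The part of these differences in the level of Adk was not tested. Ap3m1, the neighbour of Adk, stood at 35.3, 20.5 and 32.4 FPKM across the controls and 23, 23 and 22.4 after aminophylline. Its groups overlapped at control library 2, and its log2 fold change was -0.32 (SE 0.22, limma p of 0.169, adjusted p of 0.728).

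**Figure D3:**
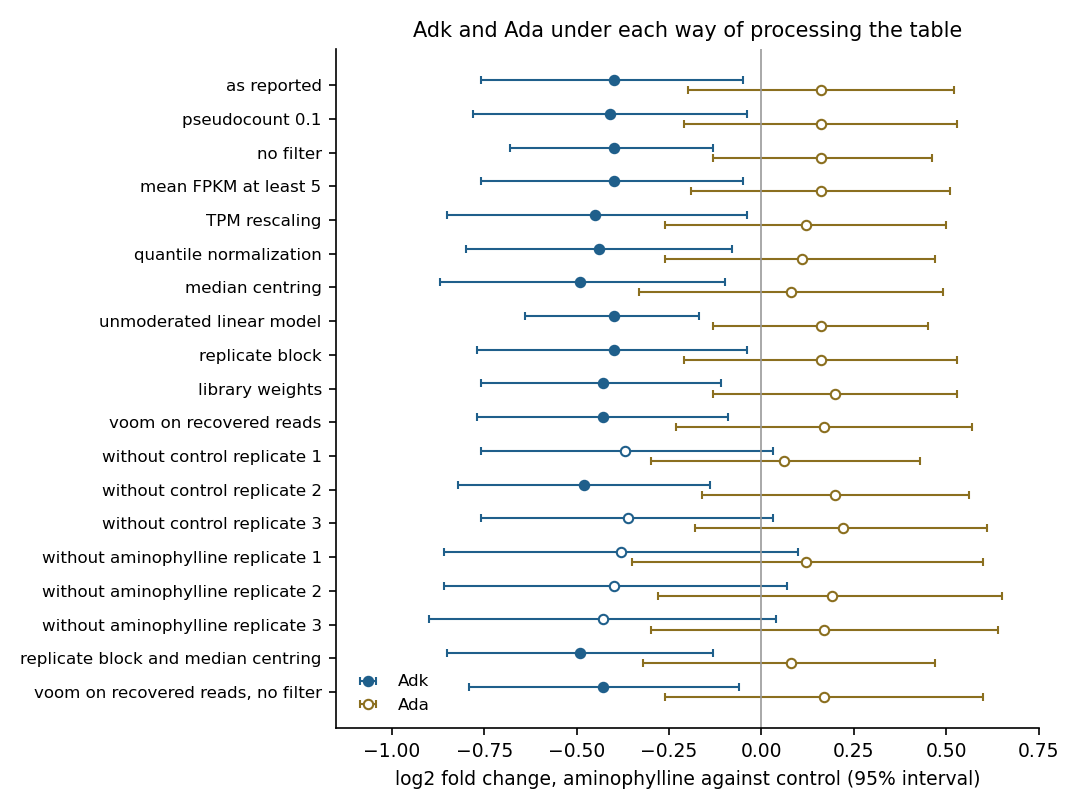
Log2 fold change of Adk (blue) and Ada (brown), aminophylline against control, as reported and under each of 18 alternatives, with 95% intervals. Filled symbols have an unadjusted p under 0.05. Adk stays between -0.49 and -0.36 and its interval crosses 0 in the 5 fits with an open symbol, and every interval of Ada crosses 0.

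Of the equilibrative carriers, which let adenosine pass in either direction, both were listed far under the filter. Slc29a2 (ENT2, NCBI gene 13340, chromosome 19, 5019057 to 5031972) stood at 0.193, 0.131 and 0.511 FPKM across the controls and 0.257, 0.347 and 0.225 after aminophylline, from 14 to 123 reads. The groups overlapped fully. Slc29a1 (ENT1, NCBI gene 63959, chromosome 17, 45585200 to 45599618) stood at 0.17, 0.075 and 0.206 FPKM against 0.0075, 0.103 and 0.118. That is 63 reads in the control group and 30 in the aminophylline group, with a single read in aminophylline library 1. On log2(FPKM + 1) with no filter, a scale that understates changes at such levels, the log2 fold change of Slc29a1 was -0.10 (limma p of 0.156). With limma's voom on the recovered reads and no filter, chosen after the values were seen, it was -1.59 (SE 0.87, 95% interval -3.46 to 0.28, limma p of 0.0902), an interval that includes no change. Slc29a2 was the higher of the carriers in 6 of 6 libraries, although by only 1.13 times in control library 1.

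Ahcy (NCBI gene 269378, chromosome 2, 155059310 to 155074497) splits S-adenosylhomocysteine, the product of every methyl transfer from S-adenosylmethionine, into homocysteine and adenosine. Its FPKM was 1.68, 3.71 and 5.42 across the controls and 3.34, 4.64 and 4.87 after aminophylline, from 133 to 438 reads. Control libraries 1 and 3 held the lowest and the highest value, with the whole aminophylline group between them. The log2 fold change was 0.28 (SE 0.31, 95% interval -0.40 to 0.96) with a limma p of 0.391 and an adjusted p of 0.813. Without control library 1 it turned to -0.07 (limma p of 0.796). Reads may be shared with Gm4737 on chromosome 16, a near-identical copy listed at 0.398 to 0.592 FPKM, so the level is uncertain to that extent. The related Ahcyl1 and Ahcyl2, which are not known to catalyse this step, had mean FPKM of 3.12 and 2.51, with overlapping groups.

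By mean FPKM, the order was Ada, Adk, Adora2b, Ahcy, Slc29a2, Slc29a1, Adora1 and Nt5e. Neighbours stood in this order in 6 of 6 libraries, except for Ada above Adk (5 of 6) and Slc29a1 above Adora1 (4 of 6). Adk exceeded Adora2b by 3.9 to 9.64 times, and Adora2b exceeded Ahcy by 1.39 to 2.82 times. Ahcy exceeded Slc29a2 by 8.74 to 28.3 times.

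The tested genes varied differently over the libraries. Over the 6 libraries, the Pearson correlation of log2(FPKM + 1) was 0.86 between Adora2b and Ahcy, 0.74 between Ada and Ahcy and -0.69 between Ada and Adk. These are descriptions over few libraries that share a group difference and a wide range of depth. The genes most like Adk were Smu1, a splicing factor, and Prim2, a primase subunit (r of 0.994 each), with Nrsn1 at 0.992, and 80 genes exceeded 0.95. Ada was most like Tex264 (0.991), Gm40042 (0.990) and Taf6l (0.988). Adora2b was most like Rpl9 (0.995), Cdo1 (0.983) and Golgb1 (0.976), and Ahcy most like Prxl2c (0.992), Srsf11 (0.992) and Smpd4 (0.991).

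The wider pathways around adenosine held 79 further genes, of which 78 were listed and 46 tested. At an unadjusted limma p under 0.05, 1 of the 46 was higher and 2 were lower, beside 4.41% higher and 2.84% lower of all tested genes, and 0 passed after adjustment. The median log2 fold change was 0.03 over the 46 genes and 0.10 over all tested genes. With the replicate block, 3 were higher and 2 lower, beside 1022 higher and 445 lower of the 10340 tested genes.

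Among further genes of nucleotide hydrolysis, none of those tested passed an unadjusted limma p of 0.05. Of 10 further genes of extracellular nucleotide hydrolysis, 3 were tested, and Entpd1 (CD39, which takes ATP and ADP to AMP) led with a mean FPKM of 3.39, then Acpp at 2.48 and Entpd2 at 1.07. Of 10 intracellular 5′-nucleotidases, 5 were tested, led by the mitochondrial Nt5m at 22.7, Nt5c3 at 11.4 and Nt5c2 at 5.11 FPKM. The list does not sort these enzymes by substrate, so their levels do not measure how much adenosine is formed from AMP. The lists had median log2 fold changes of 0.13 and -0.17.

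The concentrative carrier Slc28a2b had the highest mean FPKM of the nucleoside carriers examined, above both equilibrative ones in every library. It stood at 5.71, 4.61 and 7.93 FPKM across the controls and 4.2, 3.75 and 3.51 after aminophylline. It was lower without overlap, as were 4.96% of all tested genes. The log2 fold change was -0.53 (SE 0.23, limma p of 0.0442, adjusted p of 0.684), and the limma p rose to 0.149 without control library 3. Slc28a2, its close relative, stood at or below 0.0171 FPKM, and reads that fit both genes could be split between them. Of the 6 genes of this list, 2 were tested, the other being Slc28a1 at a mean of 1.22 FPKM, and Slc28a3 lay at 0.523.

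A further list holds adenylate kinases, deaminases and synthases that convert AMP, the product of Adk, or lie on the route that makes it. In this list 8 of 16 genes were tested and 0 passed, with Adss (adenylosuccinate synthase) at a mean of 207 FPKM and Ak6 at 7.48. Of 12 genes of purine salvage and breakdown, 10 were tested. Hprt, which salvages hypoxanthine, the base downstream of inosine, was lower in the aminophylline libraries, at 121, 122 and 116 FPKM against 243, 142 and 167. Its log2 fold change was -0.58 (SE 0.20, limma p of 0.0135, adjusted p of 0.676), and the unadjusted p reached at most 0.0466 when a library was left out. Gmpr, which converts GMP to IMP, was higher, at 100, 110 and 93.0 FPKM against 65.9, 79.4 and 84.9 (log2 fold change 0.40, SE 0.16, limma p of 0.034, adjusted p of 0.682). With median centring of the libraries its limma p was 0.129. With the replicate block, Aprt, which salvages adenine, also passed (log2 fold change 0.44, unadjusted limma p of 0.0307, against 0.0774 without it). Xdh, an enzyme of purine breakdown, had a mean of 37.0 FPKM with overlapping groups.

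**Figure D4:**
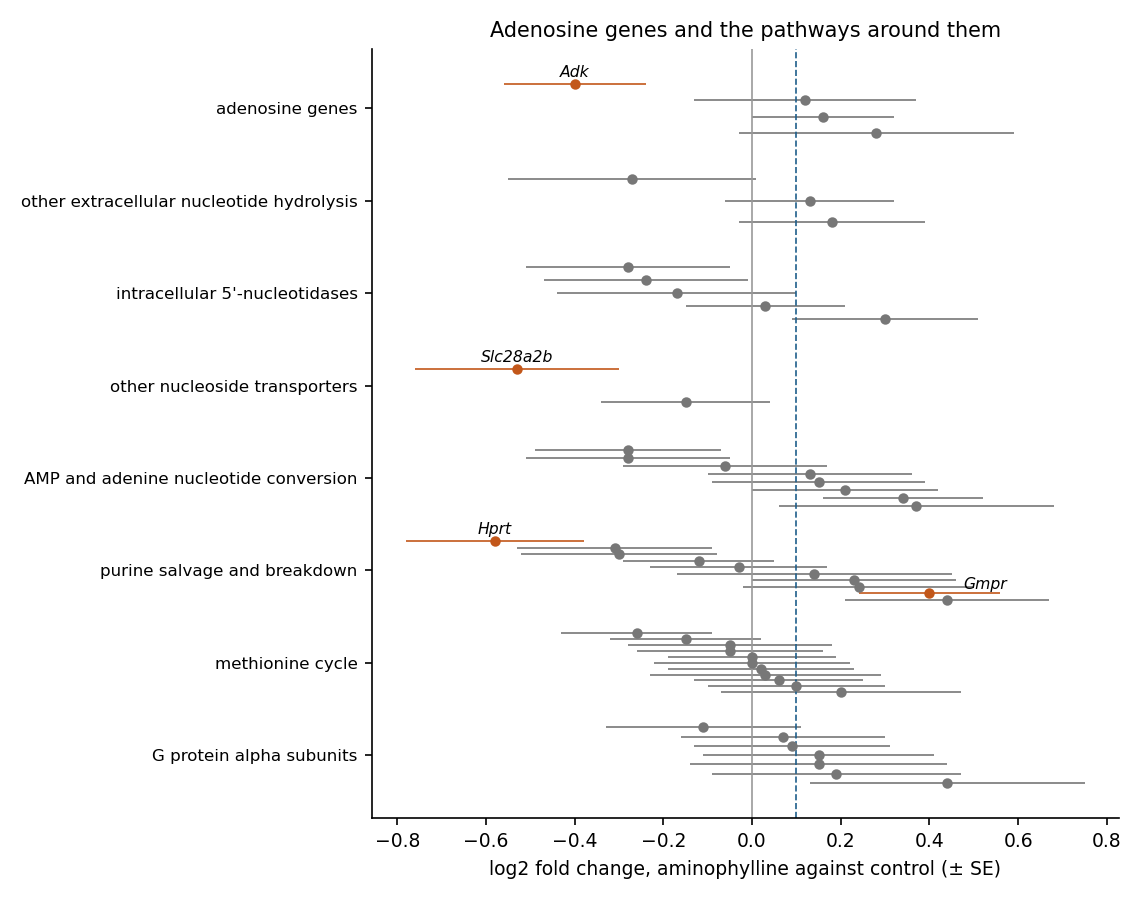
Log2 fold change (± SE) of each tested gene, aminophylline against control, for the adenosine genes and the 7 wider lists. Orange marks an unadjusted p under 0.05 and carries the gene symbol, grey marks the others, and the dashed line is the median of all tested genes at 0.10. Adk, Slc28a2b and Hprt lie below 0 and Gmpr above.

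The list of the methionine cycle, the source of S-adenosylhomocysteine, also holds polyamine synthases, which lie outside the cycle. It had 11 of 16 genes tested and 0 passed. The leading transcripts of the list were Mat2b, a regulatory subunit of methionine adenosyltransferase, at a mean of 913 FPKM, and the polyamine synthases Srm at 38.4 and Sms at 30. Of the G protein alpha subunits through which the receptors act, 7 of 9 were tested and 0 passed. With the replicate block, Gnai2 (log2 fold change 0.44) passed at an unadjusted limma p of 0.0482, against 0.188 without it. Gna14 (Gq family) had a mean of 39.4 FPKM, Gnai3 (Gi) 14.8 and Gnas (Gs) 12.2.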

How the data were processed

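The authors deposited a table of FPKM values per gene and library, with NCBI gene numbers and KEGG pathways. Per the submitters' processing notes the build was GRCm38 (mm10). The aligner, the counter and the annotation are not given in the sources used here. Groups come from the labels. Members and lists were chosen with earlier results of these data known.

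Genes that reached 1 FPKM in no fewer than 3 libraries out of 6 were tested on log2(FPKM + 1), a pseudocount of 1 that understates changes of low genes, with limma 3.58.1 in R 4.3.3 (moderated, with a trend, two-sided), after the unpaired two-tailed test of the study. Adjusted p-values are Benjamini-Hochberg values over all tested genes, and intervals are at 95%. Library sums of FPKM ran from 510206 to 587775.

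Whole reads were recovered from the ratios of values between libraries, and 22514 of 22583 genes detected in 2 or more libraries came out whole (99.7%, to within 0.001 reads). Library totals were 33641283, 14112341 and 31802417 in the control and 28233049, 24773273 and 30589657 in the aminophylline group. The floor of 3 reads covers counting error only. These steps were tested on simulated data.

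The named genes were all 10 adenosine genes, in each wider list those at an unadjusted p under 0.05 and the 3 with the highest mean FPKM, and for each tested adenosine gene the 3 most correlated genes. A gene that this rule names is not reported here. Outside this rule, marker genes and the neighbours and relatives Ap3m1, Tmigd3, Gm4737, Nt5el, Ahcyl1, Ahcyl2, Slc28a2, Gnai2 and Aprt were named after their values were seen.

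Both groups carry the numbers 1 to 3. Over the tested genes, deviations from the group means correlated at 0.138, 0.14 and 0.552 between same-numbered libraries, each over 0.1, so the number was also fitted as a block. The sources used here do not say what a number stands for, and control library 2 correlated more with aminophylline library 1 (0.423). Positions and promoter windows are from RefSeq (GRCm38.p6), and exons from GENCODE. Alternatives were another pseudocount, no filter, a stricter filter (mean FPKM of 5 or more), TPM, quantile and median scaling, an unmoderated model, library weights, voom on the recovered reads and leaving out each library. The block with median centring and voom with no filter were added after the values were seen. Python 3.11.15, pandas 2.3.3 and matplotlib 3.10.9 were used.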

Additional observations from a re-analysis of the deposited data

How the results depend on the processing

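At an unadjusted limma p under 0.05, 456 genes were higher and 294 lower in the aminophylline group. The number of higher genes was 917 with no filter, 294 with a mean FPKM of at least 5, 281 with TPM, 281 with median centring, 1022 with the replicate block, 1398 with library weights and 203 to 1219 when a library was left out. The number of lower genes was 487 with no filter, 528 with quantile scaling, 502 with median centring, 445 with the replicate block, 613 with library weights, 751 with the block and median centring, and 126 to 752 when a library was left out. The share of higher against lower genes thus depended on the scaling, with 281 higher and 292 lower under TPM, 347 and 528 under quantile scaling and 281 and 502 under median centring. After adjustment 0 genes passed in the reported fit and 47 with the replicate block, and adding median centring to the block left 0. Of the adenosine genes, 0 passed after adjustment in any of these fits. The number of them lower at an unadjusted p under 0.05 was 1 in the reported fit and 0 to 1 when a library was left out, where Adk passed only without control library 2. When a library was left out, the log2 fold change of Adora2b ran from -0.09 to 0.27 and that of Ahcy from -0.07 to 0.56. Both were negative only without control library 1, and the cause was not tested. The block changed no call of an adenosine gene. Ada stayed positive in 18 of 18 alternatives and passed in none. With 3 libraries a group, the 95% interval of Adora2b reached from 0.744 to 1.6 times and that of Ahcy from 0.756 to 1.94 times. Changes within these bounds, no change included, remain compatible with the data. For Nt5e, Adora1 and Slc29a1 the number of reads sets the limit, and 5 of the 6 values of Nt5e were at or under the floor.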

Other observations

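The KEGG pathways that the deposited table assigns to each gene reach further than the lists above. In Purine metabolism, 64 of 127 further genes were tested, and 1 was higher and 2 lower at an unadjusted limma p under 0.05, beside 4.41% higher and 2.84% lower of all tested genes, with a median log2 fold change of 0.11. With the replicate block, 3 were higher and 3 lower, beside 1022 and 445 of the 10340 tested genes. Besides Gmpr and Hprt this was Prps1, which makes phosphoribosyl pyrophosphate, the donor that Hprt uses. Prps1 stood at 3.94, 2.80 and 3.47 FPKM across the controls and 1.51, 1 and 1.85 after aminophylline. It was lower without overlap, as were 4.96% of all tested genes. Its log2 fold change was -0.85 (SE 0.22, limma p of 0.00272, adjusted p of 0.651, and 0.056 with the replicate block), and its unadjusted p stayed at or under 0.0226 when a library was left out. In Cysteine and methionine metabolism, 30 of 49 further genes were tested, and 2 were higher and 0 lower, or 4 and 0 with the replicate block, against the same shares of all tested genes. Dnmt1, the maintenance DNA methyltransferase, stood at 45.9, 66.1 and 84.7 FPKM across the controls and 77.3, 107 and 132 after aminophylline, and the groups overlapped (log2 fold change 0.69, SE 0.25, limma p of 0.0188, adjusted p of 0.682, and 0.0588 with the replicate block). Phgdh, the first enzyme of serine synthesis, stood at 11.7, 13.7 and 14.4 against 17.3, 21.9 and 20.5 FPKM (log2 fold change 0.55, SE 0.19, limma p of 0.0144, adjusted p of 0.676). Without 1 library the unadjusted p reached 0.094 for Dnmt1 and 0.0716 for Phgdh.

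Markers of other cells were low. Those of theca and stroma summed to 2.90 to 3.85 FPKM in the control and 3.89 to 5.25 in the aminophylline libraries, those of endothelium to 5.70 to 9.08 and 6.21 to 8.26, those of lymphocytes to 0.268 to 0.752 and 0.398 to 0.577, and those of erythrocytes to 0.0679 to 0.585 and 0.0486 to 0.380.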
